A study of Mus musculus with 8 samples.

Results

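The 8 genes described here serve the growing mouse oocyte: the secreted growth factors Gdf9 and Bmp15, the receptor Kit, the transcription factors Figla, Nobox, Sohlh1 and Lhx8, and Taf4b, a subunit of the general transcription factor TFIID. Every array probe set whose annotation named 1 of them as its only gene was taken. This gave 13 probe sets for 8 of the 18193 genes that had a probe set with a single symbol. Bmp15 and Taf4b had 3 probe sets each, Kit had 2, and the other 5 genes had 1 each.

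Transcripts were measured on Affymetrix arrays in 4 samples labelled Brg1 mutant and in 4 samples labelled wild type, each made of RNA from 20 pooled whole embryos at the 2-cell stage. Brg1, also named Smarca4, encodes an ATPase of the BAF chromatin remodelling complex, and the series title places the question in the maternal protein and the onset of embryonic transcription. The labels give no allele, Cre driver, strain, age of the mothers or genotype of the embryos, and no treatment. In the study as it is known, Brg1 was deleted in growing oocytes by a Cre transgene under the Zp3 promoter, so that the embryos came from eggs that lacked maternal BRG1.

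GDF9 and BMP15 are related proteins of the TGF-beta family that the oocyte secretes onto the surrounding granulosa and cumulus cells, where they bind serine/threonine kinase receptors and act through SMAD proteins. KIT is a receptor tyrosine kinase on the oocyte surface, and its ligand, the product of Kitl, comes from granulosa cells. FIGLA and SOHLH1 are basic helix-loop-helix proteins, NOBOX is a homeobox protein and LHX8 a LIM homeobox protein. All 4 are needed for the formation or early growth of ovarian follicles in the mouse. Their transcripts, like those of the growth factors, are made in the oocyte and stored in the egg, and much stored RNA is degraded by the 2-cell stage.

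Values are MAS5 signals, a linear measure of array intensity, and n is 4 samples per group throughout unless stated. The label was checked first: Smarca4 probe set 1426804_at gave 387.5, 200.9, 273 and 291.3 in mutant samples 1 to 4, against 796, 632.1, 612.1 and 660.6 in wild type samples 1 to 4 (log2 change -1.26, limma adjusted p = 0.0211), while a second one, 1426805_at, did not pass (0.04, adjusted p = 0.963). Which of them lies in the deleted part of the gene was not determined. All arrays had the same trimmed mean, 150, and medians from 36.3 to 47.6. The mutant samples were not alike. The highest signal was 29399.7 and 25925 in mutant samples 1 and 2 and between 8075.3 and 11063.5 on every other array. The part of this in the values below was not tested. Relative to their wild type mean, the hybridisation controls stood at 5.99 and 3.74 in mutant samples 1 and 2 and at 1.37 and 0.69 in mutant samples 3 and 4, with wild type samples between 0.68 and 1.27. The summed signal of 12 granulosa and cumulus markers was 2136 and 1344 in mutant samples 1 and 2 and 21830 and 18196 in mutant samples 3 and 4, against 1849 to 2569 in wild type samples. In samples 3 and 4, 9 of these 12 markers were above every other sample, some by little, as Foxl2 (189.8 and 186.6, against 181.8 in mutant sample 2). The 6 oviduct epithelium markers summed to 620 and 885 in mutant samples 1 and 2 and to 1700 and 1583 in mutant samples 3 and 4. Their sum was 502 to 761 in wild type samples, and 3 of the 6 were above every other sample in mutant samples 3 and 4. The 7 oocyte and egg markers summed to 38378 and 38151 in mutant samples 1 and 2 and to 18746 and 15787 in mutant samples 3 and 4, against 14276 to 18782 in wild type samples, and all 7 were above every wild type sample in mutant samples 1 and 2. The ratio of 3′ to 5′ actin signal was 4.88 to 15.0 in mutant samples and 16.3 to 21.1 in wild type samples. Results over all 4 mutant samples are therefore set beside those for mutant samples 1 and 2 and for mutant samples 3 and 4 apart, each pair against all 4 wild type samples. Across whole embryo pools, fewer cells of a type and less RNA per cell cannot be told apart.

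The promoters of 6 of the 8 genes were in the RefSeq table used (GRCm38.p6), as windows of 250 bases before and 50 bases after a transcript start. The 3 printed below belong to Bmp15, Kit and Lhx8, each with a probe set whose log2 change was positive in mutant samples 1 and 2 and negative in mutant samples 3 and 4, and they were chosen after those values were seen. Sohlh1 had the same signs and is not printed. They are written 5′ to 3′, with matches to short binding sequences in capitals. The search covered both strands. CANNTG is the E-box bound by helix-loop-helix proteins. Sequences reported for mouse NOBOX are TAATTG and its variants TAATTA or TAGTTG, and the sequence reported for mouse LHX8 is TGATTG.
Bmp15 promoter, GRCm38.p6 chrX:6320675-6320974, minus strand: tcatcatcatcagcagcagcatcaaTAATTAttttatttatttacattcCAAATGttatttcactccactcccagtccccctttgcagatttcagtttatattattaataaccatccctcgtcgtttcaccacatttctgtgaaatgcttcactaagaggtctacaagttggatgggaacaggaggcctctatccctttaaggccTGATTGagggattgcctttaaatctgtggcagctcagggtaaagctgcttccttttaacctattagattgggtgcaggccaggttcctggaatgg
Kit promoter, GRCm38.p6 chr5:75574737-75575036, plus strand: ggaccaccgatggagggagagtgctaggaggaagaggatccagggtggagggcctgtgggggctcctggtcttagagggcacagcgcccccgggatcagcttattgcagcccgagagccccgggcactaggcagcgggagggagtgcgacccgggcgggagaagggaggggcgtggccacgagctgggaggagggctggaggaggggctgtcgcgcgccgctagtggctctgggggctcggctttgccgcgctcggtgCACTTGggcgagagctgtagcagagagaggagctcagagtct
Lhx8 promoter, GRCm38.p6 chr3:154330511-154330810, minus strand: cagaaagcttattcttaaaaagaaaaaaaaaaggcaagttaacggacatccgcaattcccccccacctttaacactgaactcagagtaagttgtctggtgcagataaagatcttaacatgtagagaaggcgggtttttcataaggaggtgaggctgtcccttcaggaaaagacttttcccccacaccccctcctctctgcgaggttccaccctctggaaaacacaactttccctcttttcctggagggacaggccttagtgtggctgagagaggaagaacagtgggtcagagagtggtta
The Bmp15 window held the NOBOX sequence TAATTA from base -225 relative to the start, an E-box CAAATG from -201 and the LHX8 sequence TGATTG from -45, with no overlap between them. Kit had 1 match, the E-box CACTTG from base 9 after the start, and the Lhx8 window had none. Of the windows not printed, Sohlh1 held 5 E-boxes, 3 of them CACGTG, Figla held 4 and Nobox 2, and none of these 3 held a NOBOX or LHX8 sequence. Such letters are common: over all 32851 promoter windows of the same length, 72.3% held an E-box, 17.9% at least 1 of the 3 NOBOX sequences and 14% the LHX8 sequence. A match is a description of letters and not of a bound site.

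Of the 13 probe sets, 12 lay in the upper 50% of the array's probe sets by mean log2 signal and were tested. Over all 4 mutant samples, 1 of the 12 rose (Gdf9), 1 fell (1 of 3 for Taf4b) and 10 did not pass an adjusted p of 0.05 in limma. Among all 22518 tested probe sets, 2.98% rose and 3.58% fell. In 1 of the 12 every mutant sample lay above every wild type sample and in 2 every mutant sample lay below, against 7.83% and 9.67% of all tested probe sets.

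**Figure D1:**
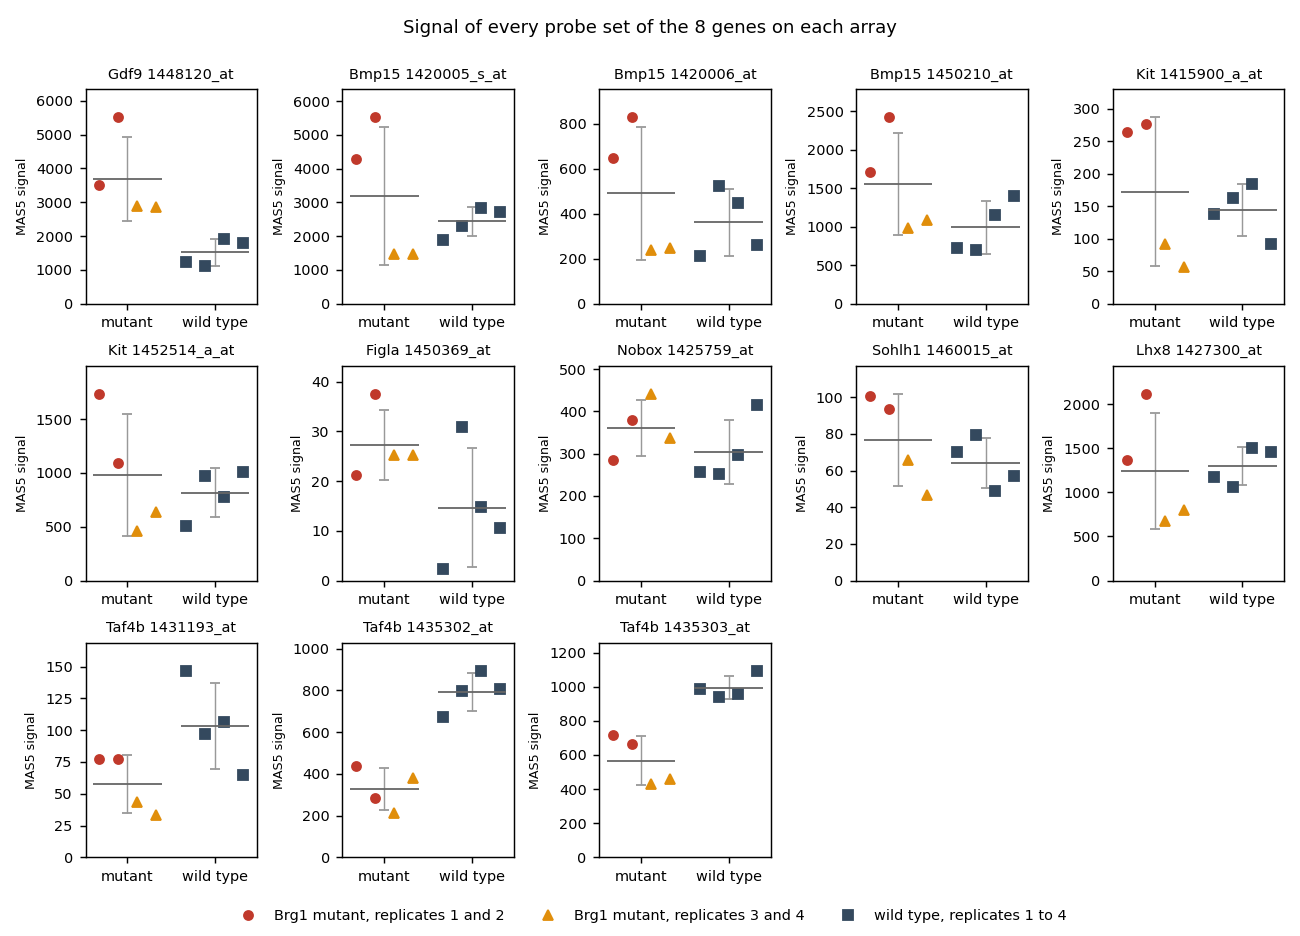
MAS5 signal (linear scale, each panel with its own axis from 0) of the 13 probe sets in every sample, with Brg1 mutant samples left of wild type samples; points are single samples in replicate order, and horizontal lines and error bars are the mean and SD of 4 samples. The groups are apart for Gdf9 and for Taf4b probe sets 1435302_at and 1435303_at. Mutant samples 1 and 2 lie above mutant samples 3 and 4 for Gdf9, Bmp15, Kit, Sohlh1, Lhx8 and Taf4b probe sets 1435303_at and 1431193_at.

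Gdf9, the growth factor that oocytes need to carry follicles past the primary stage, was higher in the mutant embryos. Its signal was 3516.3, 5513.9, 2876.7 and 2853.8 in mutant samples 1 to 4, against 1235.4, 1119.4, 1925.4 and 1808.5 in wild type samples 1 to 4. Every mutant sample was above every wild type sample, and the mean was 3690 ± 1254 in mutant and 1522 ± 404 in wild type samples (SD, n = 4 each). This was a 2.40-fold rise (95% confidence interval 1.53 to 3.77), a log2 change of 1.26 with a standard error of 0.30 (limma adjusted p = 0.0343). Gdf9 passed in both mutant pairs taken alone, with log2 changes of 1.57 in mutant samples 1 and 2 (adjusted p = 0.0185) and 0.95 in mutant samples 3 and 4 (adjusted p = 0.0115). In mutant samples 1 and 2 the summed oocyte and egg markers and the hybridisation controls were high as well, and their part was not tested. Between these samples the controls were higher in mutant sample 1 (5.99 against 3.74) and Gdf9 in mutant sample 2. In mutant samples 3 and 4 the oocyte and egg sum was 18746 and 15787, against 14276 to 18782 in wild type samples. Single markers in that sum differed: Zar1 was 2438.6 and 2482.8 in these samples, against 337 to 410.7 in wild type samples. Zp1 was 236.7 and 167.4, against 206.5 to 263.8. Among all tested probe sets 18.3% rose in this pair. The part of the markers in the Gdf9 values of mutant samples 3 and 4 was not tested either. The adjusted p over all samples was close to the threshold. It was 0.0597 without mutant sample 3, 0.0595 without mutant sample 4, and 0.113, 0.0904, 0.0697 and 0.0799 without wild type samples 1 to 4, while the log2 change over all single omissions stayed between 1.05 and 1.39. It was 0.072 with arrays centred on their 75th percentile, 0.0592 with arrays centred on their median and 0.0557 with no filter on dim probe sets.

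Bmp15, the X-linked relative and partner of Gdf9, did not pass over all samples with any of its 3 probe sets, and the mutant pairs stood apart. Probe set 1420005_s_at, of a type that can match related transcripts as well, gave 4283.3, 5518, 1482.5 and 1470 in mutant samples, against 1886.1, 2311.1, 2831.5 and 2707.6 in wild type samples. Mutant samples 1 and 2 lay above and mutant samples 3 and 4 below every wild type sample, so that the mean log2 change, 0.16 (standard error 0.44, 95% confidence interval -0.81 to 1.12), averaged values on opposite sides of wild type. With array weights it was -0.66 and passed as a fall (adjusted p = 0.0313). In mutant samples 1 and 2 it rose 2.02-fold (log2 change 1.02, adjusted p = 0.0305). In mutant samples 3 and 4 it fell by 0.70 on the log2 scale (adjusted p = 0.0165).

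Bmp15 probe set 1450210_at gave 1713.1, 2419.8, 988.1 and 1083.9 in mutant samples, against 724.3, 697.8, 1146.6 and 1400.6 in wild type samples. Only mutant samples 1 and 2 stood outside the wild type range here. The log2 change was 0.61 with a standard error of 0.35 over all samples (adjusted p = 0.303), 1.10 in mutant samples 1 and 2 (adjusted p = 0.0709) and 0.12 in mutant samples 3 and 4 (adjusted p = 0.755). Probe set 1420006_at gave 645.9, 829, 239.2 and 246.4 in mutant samples, against 213.1, 525.3, 448.3 and 262.3 in wild type samples. Mutant samples 1 and 2 were again above every wild type sample, and the other mutant samples lay within the wild type range (log2 change 0.32, standard error 0.46, adjusted p = 0.723). The pairs alone gave 1.11 (adjusted p = 0.103) for mutant samples 1 and 2 and -0.48 (adjusted p = 0.304) for mutant samples 3 and 4. The 3 probe sets thus shared high values in mutant samples 1 and 2 and disagreed on whether mutant samples 3 and 4 were below wild type.

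Kit, the receptor through which granulosa cells support oocyte growth, showed the same division between the mutant pairs. Probe set 1452514_a_at gave 1731.7, 1095.4, 457.9 and 639 in mutant samples, against 509.9, 974.6, 774.5 and 1003.9 in wild type samples. Probe set 1415900_a_at gave 264.1, 277.3, 92.3 and 56.2 in mutant samples, against 138.1, 162.9, 184.4 and 91.2 in wild type samples. In both, mutant samples 1 and 2 were above every wild type sample, and mutant samples 3 and 4 were at the low end of the wild type range or under it. Over all samples the log2 changes were 0.13 (standard error 0.41, adjusted p = 0.878) and 0.00 (standard error 0.51, adjusted p = 0.999), with a 95% confidence interval of -1.12 to 1.12 for 1415900_a_at. Taken alone, mutant samples 1 and 2 gave 0.80 (adjusted p = 0.156) and 0.96 (adjusted p = 0.0959) for these probe sets. Mutant samples 3 and 4 gave -0.54 (adjusted p = 0.163) and -0.95 (adjusted p = 0.0469), the second of which passed.

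**Figure D2:**
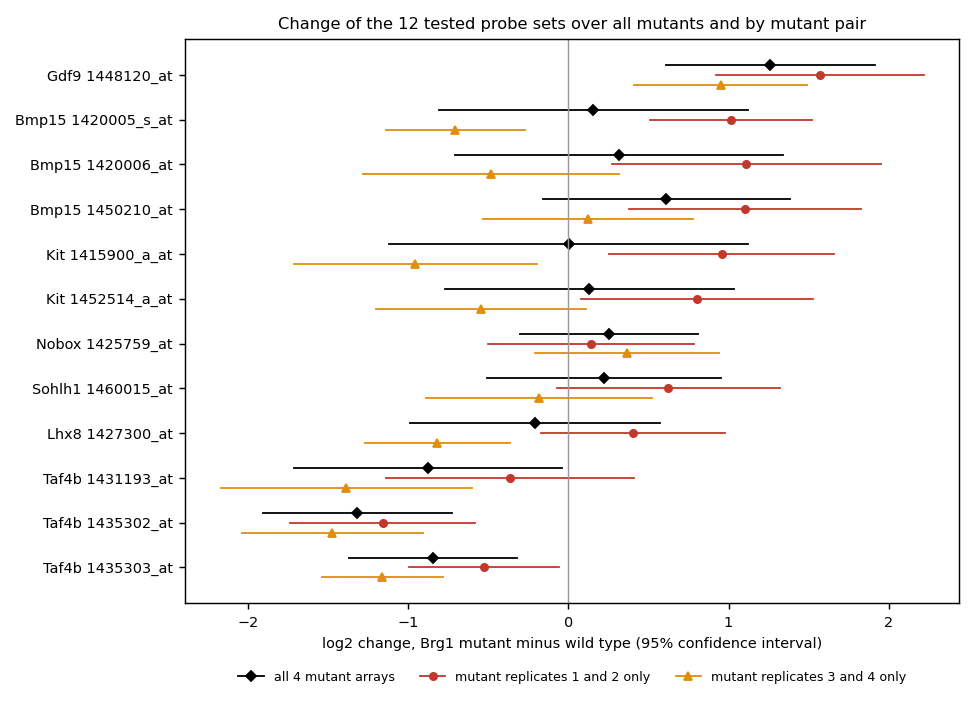
Log2 change (Brg1 mutant minus wild type, x axis) of the 12 tested probe sets, with 95% confidence intervals of the limma fits, for all 4 mutant samples and for each mutant pair against the 4 wild type samples. Gdf9 lies above 0 and Taf4b 1435302_at below 0 in all 3 fits, whereas Bmp15 1420005_s_at is 1.02 in mutant samples 1 and 2 and -0.70 in mutant samples 3 and 4.

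Lhx8, a LIM homeobox factor required for the growth of primordial follicles, did not pass over all samples. Its signal was 1370.2, 2115.9, 671.4 and 796.3 in mutant samples, against 1173.8, 1064.7, 1509 and 1458.9 in wild type samples. Mutant samples 3 and 4 were below every wild type sample, and mutant sample 2 alone was above them. The log2 change was -0.21 with a standard error of 0.35 (adjusted p = 0.765) over all samples, -0.86 with array weights, under which it passed as a fall (adjusted p = 0.00383), and 0.40 in mutant samples 1 and 2 (adjusted p = 0.357). In mutant samples 3 and 4 it fell by 0.82 on the log2 scale (adjusted p = 0.0102).

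Nobox, a homeobox activator of oocyte genes that include Gdf9 in the mouse, gave 286.3, 380.1, 441 and 336.1 in mutant samples, against 256.1, 252.7, 296.9 and 414.7 in wild type samples. The groups overlapped, and the mutant pairs were not divided as for Bmp15, Kit and Lhx8. Its log2 change was 0.25 (standard error 0.25, adjusted p = 0.574, 95% confidence interval -0.30 to 0.81), 0.14 in mutant samples 1 and 2 (adjusted p = 0.793) and 0.37 in mutant samples 3 and 4 (adjusted p = 0.276).

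Sohlh1, a helix-loop-helix factor of early follicle growth, gave 100.6, 93.7, 66 and 46.6 in mutant samples, against 70.1, 79.7, 49.1 and 57.2 in wild type samples. Mutant samples 1 and 2 were above every wild type sample and mutant sample 4 was below all of them. The log2 change was 0.22 (standard error 0.33, adjusted p = 0.729), with 0.63 in mutant samples 1 and 2 (adjusted p = 0.241) and -0.18 in mutant samples 3 and 4 (adjusted p = 0.665).

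Figla, the helix-loop-helix activator of the zona pellucida genes, was the 1 probe set too dim to be tested. Its signal was 21.2, 37.5, 25.2 and 25.2 in mutant samples, against 2.4, 30.9, 14.8 and 10.5 in wild type samples. Against a bound on background from the Bacillus control probe sets, it exceeded the bound in mutant samples 3 and 4, where the bound was 14.7 and 16.2, and in no other sample. No fold is given for it, and with no filter on dim probe sets it did not pass (adjusted p = 0.344).

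Taf4b, the TFIID subunit that is enriched in germ cells and needed for normal follicle numbers, was lower in the mutant embryos. Probe set 1435302_at gave 439.3, 282.9, 213 and 378.4 in mutant samples, against 671.2, 795.2, 892.7 and 806 in wild type samples. No mutant sample reached the wild type range, and the means were 328 ± 100 in mutant and 791 ± 91.2 in wild type samples (SD, n = 4 each). This was a 2.49-fold fall, with a log2 change of -1.32 (standard error 0.27, 95% confidence interval -1.90 to -0.73, adjusted p = 0.0225). The fall passed in both mutant pairs, at -1.16 in mutant samples 1 and 2 (adjusted p = 0.0314) and -1.47 in mutant samples 3 and 4 (adjusted p = 0.00161). The adjusted p over all samples was 0.0597 without mutant sample 3 and 0.0665, 0.0578, 0.0753 and 0.0727 without wild type samples 1 to 4, with log2 changes between -1.47 and -1.12 over all single omissions.

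Taf4b probe set 1435303_at gave 714.5, 663.7, 431.1 and 457.3 in mutant samples, against 985.5, 940.9, 956.6 and 1092.7 in wild type samples. These groups were apart as well, but the log2 change of -0.84 (standard error 0.24) did not pass over all samples (adjusted p = 0.0586). It passed without mutant sample 1 (adjusted p = 0.0318) and without mutant sample 2 (adjusted p = 0.0354). It was -0.53 in mutant samples 1 and 2 (adjusted p = 0.153) and -1.16 in mutant samples 3 and 4 (adjusted p = 0.000663). The third, 1431193_at, gave 77.2, 77.1, 43.9 and 33 in mutant samples, against 146.6, 97.2, 106.1 and 64.4 in wild type samples. Its groups overlapped through the lowest wild type sample (log2 change -0.87, standard error 0.38, adjusted p = 0.180), and mutant samples 3 and 4 alone gave -1.38 (adjusted p = 0.0115). All 3 Taf4b probe sets therefore had a negative log2 change in both mutant pairs.

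Counted by pair, 7 of the 12 tested probe sets (Gdf9, all 3 of Bmp15, both of Kit, and Sohlh1) were above every wild type sample in mutant samples 1 and 2, and 2 (both Taf4b) were below. Among all tested probe sets these shares were 20.2% above and 15.1% below. In mutant samples 3 and 4, Gdf9 alone was above every wild type sample and 5 probe sets (Bmp15 1420005_s_at, Lhx8 and all 3 of Taf4b) were below, against 24.9% above and 34.5% below among all tested probe sets. By adjusted p, mutant samples 1 and 2 gave 2 rises (Gdf9 and Bmp15 1420005_s_at) and 1 fall (Taf4b 1435302_at), against 3.60% and 3.11% of all tested probe sets. Mutant samples 3 and 4 gave 1 rise (Gdf9) and 6 falls (Bmp15 1420005_s_at, Kit 1415900_a_at, Lhx8 and the 3 of Taf4b), against 18.3% and 23.2%. Mutant samples 3 and 4 were close to each other over the tested probe sets (r = 0.969), against r = 0.895 for mutant samples 1 and 2, and both fits share the wild type samples. Gdf9, Bmp15, Kit and Sohlh1 were high in mutant samples 1 and 2, where the summed oocyte and egg markers and hybridisation controls were also high. The low values in mutant samples 3 and 4 stood in the samples with high granulosa and cumulus markers. The part of these in the members' values was not tested.

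**Figure D3:**
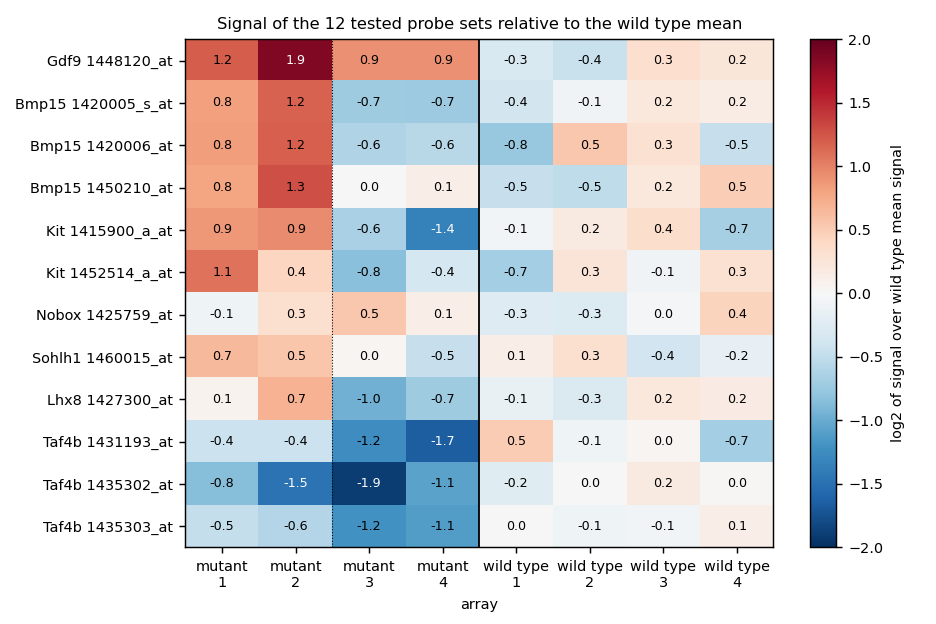
Heat map of log2 of each sample's signal over the wild type mean signal (printed in each cell, colour scale from -2 to 2) for the 12 tested probe sets (rows) in the 4 Brg1 mutant samples, left, and the 4 wild type samples, right. Gdf9 is positive and the 3 Taf4b probe sets are negative in all mutant samples, while Bmp15 1420005_s_at is positive in mutant samples 1 and 2 and negative in mutant samples 3 and 4.

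Over the 8 arrays, which all pairs of genes share, log2 signals of Bmp15 1420005_s_at and Lhx8 had a Pearson r of 0.90, and those of Bmp15 1420005_s_at and the Kit probe sets 0.85 (1415900_a_at) and 0.82 (1452514_a_at). The other Bmp15 probe sets had r = 0.67 (1420006_at) and 0.64 (1450210_at) with Lhx8. With the Kit probe sets in the same order, 1420006_at had 0.85 and 0.78 and 1450210_at had 0.44 and 0.61. Gdf9 had r = 0.87 with Bmp15 1450210_at and 0.49 with Bmp15 1420005_s_at. With Gdf9, the Taf4b probe sets had r = -0.76 (1435302_at), -0.61 (1435303_at) and -0.49 (1431193_at). Gdf9 was higher and Taf4b lower in the mutant samples, so the group difference alone gives a negative r here. The Taf4b probe sets 1435302_at and 1435303_at had r = 0.89 with each other. These values describe 8 arrays and carry no test.

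For each tested gene the 2 other genes with the most similar pattern over the 8 arrays were listed by Pearson r of log2 signal to its brightest tested probe set. For Gdf9 they were Slc39a10, a zinc transporter (r = 0.998), and Ttc23 (r = 0.995). Slc39a10 gave 2465.4, 3513.1, 1980.1 and 2024.6 in mutant samples, against 888, 868.8, 1415.6 and 1258.1 in wild type samples. For Bmp15 they were the protease gene Tmprss11a (r = 0.999) and the inositol phosphate kinase gene Ipmk (r = 0.995), for Kit Tmem106c (0.987) and the heat shock gene Hspa1b (0.956), and for Lhx8 D6Ertd474e (0.995) and Ralgps2 (0.994). For Taf4b they were Klf11, a Kruppel-like transcription factor (0.994), and Bicc1, an RNA-binding protein gene (0.992). Bicc1 gave 131.4, 118.2, 63.7 and 60.4 in mutant samples, against 229.8, 203.2, 221.9 and 325.8 in wild type samples. Nobox stood nearest Mpst (0.956) and Pcm1 (0.938), and Sohlh1 nearest Krtap19-4 (0.974) and Spib (0.969). Mpst and Krtap19-4 were dim: Mpst was 27.2 in wild type sample 2 (background bound 31.0) and Krtap19-4 was 23.6 in wild type sample 3 (27.0). All these r values are the highest picked from many probe sets over 8 arrays and carry no test.

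The list around GDF9 and BMP15 held 15 receptors and SMAD proteins of the TGF-beta family, not only those through which these 2 factors act. Of the 15 genes 13 were tested, 3 rose and 0 fell. Among all 11934 tested genes, each represented by its brightest tested probe set, 3.01% rose and 4.03% fell. The median log2 change was 0.16 for these 13 genes and -0.05 over all tested genes. In mutant samples 1 and 2, 1 rose and 0 fell, against 3.85% and 3.63% of all tested genes, with a median of 0.11 beside 0.04. In mutant samples 3 and 4, 5 rose and 2 fell, against 19.3% and 24.4%, with a median of -0.21 beside -0.19. The 5 include Tgfbr2, at 23.2, 26.6, 155.1 and 126.5 in mutant samples, against 47.3, 8.7, 31.5 and 34.8 in wild type samples. Tgfbr2 could pass the filter on dim probe sets through mutant samples 3 and 4 alone. Its rise, and with it this count and median, is a description only. Bmpr2, the type II receptor shared by both growth factors, had a mean signal of 1255 ± 186 in mutant and 488 ± 106 in wild type samples (log2 change 1.37, standard error 0.23, adjusted p = 0.0145). It passed in both mutant pairs (adjusted p = 0.0253 for samples 1 and 2 and 0.000772 for samples 3 and 4), but its other 2 tested probe sets did not pass and 1 of them had a negative log2 change. Bmpr1b, a type I receptor used by BMP15, averaged 398 ± 170 in mutant and 125 ± 29.9 in wild type samples (log2 change 1.60, standard error 0.34, adjusted p = 0.0273). Smad4, the shared partner of the receptor-activated SMAD proteins, averaged 693 ± 197 in mutant and 321 ± 57.8 in wild type samples (log2 change 1.08, standard error 0.26, adjusted p = 0.0382). Bmpr1b and Smad4 passed in mutant samples 3 and 4 (adjusted p = 0.000242 and 0.000786) and not in mutant samples 1 and 2 (0.0642 and 0.108). The granulosa and cumulus markers were high in the same mutant samples 3 and 4, and their part in this was not tested. Of the other tested probe sets, neither of the 2 for Bmpr1b passed (adjusted p = 0.0729 and 0.435), and for Smad4 1 rose (1422485_at, adjusted p = 0.0242) and 1 did not pass (1422487_at, adjusted p = 0.118). Without mutant sample 3, mutant sample 4 or any 1 wild type sample, neither Bmpr1b (adjusted p from 0.0648 to 0.0917) nor Smad4 (0.0593 to 0.116) passed, and Bmpr2 did not pass without wild type sample 1 (0.0626) or 4 (0.0577). Smad4 also missed the threshold with median centring (0.0646), no filter (0.0511) and no intensity trend (0.0528).

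Around KIT, 12 of 16 listed genes of its ligand and signalling pathway were tested, with a median log2 change of 0.16 beside -0.05. Of these 12, 1 rose and 0 fell, against 3.01% and 4.03% of all tested genes. The 1 was Kitl, the ligand, whose probe set 1415855_at gave 161.3, 92, 180.7 and 233.3 in mutant samples, against 31.2, 31.4, 56.8 and 58.3 in wild type samples. All mutant samples were above the wild type samples, and the log2 change was 1.90 with a standard error of 0.37 (adjusted p = 0.0206). In mutant samples 1 and 2 alone it did not pass (log2 change 1.52, adjusted p = 0.0571), nor without mutant sample 3, mutant sample 4 or any 1 wild type sample (adjusted p from 0.0538 to 0.0747). A second tested Kitl probe set, 1426152_a_at, gave 70.7, 73.6, 74.1 and 76.8 in mutant samples, against 103.1, 106, 77.6 and 75.4 in wild type samples, and did not pass (log2 change -0.28, adjusted p = 0.540). Which probe set stands for Kitl was decided by the mean over all 8 samples, the high mutant values included, so the list's 1 rise is a description of 1415855_at alone. Kitl is also 1 of the granulosa and cumulus markers whose sum was high in mutant samples 3 and 4. By pair, with the brightest probe set of a gene taken within each fit, 1 of the 12 genes rose and 0 fell in mutant samples 1 and 2. In mutant samples 3 and 4, 3 rose and 2 fell, against 19.3% and 24.4% of all tested genes, with a median of -0.21 beside -0.19.

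Of the partners and relatives of the transcription factors, 13 of 15 were tested. Among them 1 rose and 2 fell, against 3.01% and 4.03% of all tested genes, with a median log2 change of -0.04 beside -0.05. By pair, with the brightest probe set of a gene taken within each fit, 0 rose and 2 fell in mutant samples 1 and 2. The shares over all tested genes were 3.85% and 3.63%, and the median was 0.36 beside 0.04. In mutant samples 3 and 4, 5 rose and 3 fell, against 19.3% and 24.4% of all tested genes, with a median of -0.31 beside -0.19. The 5 include Id3, at 27, 43.1, 657.4 and 754.8 in mutant samples, against 21.1, 22.1, 4.6 and 20.2 in wild type samples. Id3 could pass the filter on dim probe sets through mutant samples 3 and 4 alone. Its rise, and with it this count and median, is a description only. The E-proteins pair with helix-loop-helix factors such as FIGLA. Among them Tcf12 fell, at 306 ± 98.6 in mutant and 799 ± 51.0 in wild type samples for probe set 1421908_a_at (log2 change -1.44, standard error 0.26, adjusted p = 0.0179). A second Tcf12 probe set, 1427670_a_at, did not pass and gave 88, 61.2, 1066.9 and 1048 in mutant samples, against 575.5, 471, 430.5 and 424.7 in wild type samples, so that the mutant pairs stood on opposite sides of wild type. Tcf4 rose, at 432 ± 103 in mutant and 168 ± 51.8 in wild type samples (log2 change 1.38, standard error 0.29, adjusted p = 0.0260), and 3 of its 4 other tested probe sets also rose. Tcf4 did not pass in mutant samples 1 and 2 (log2 change 1.10, adjusted p = 0.0725) and passed in mutant samples 3 and 4 (1.66, adjusted p = 0.00178), where the granulosa and cumulus markers were high; their part in this was not tested. Tbp, the TATA-binding subunit of TFIID, fell with 279 ± 74.6 in mutant and 539 ± 53.4 in wild type samples (log2 change -0.995, standard error 0.26, adjusted p = 0.0485). Tcf12 1421908_a_at passed in mutant samples 1 and 2 (-1.06, adjusted p = 0.0267) and in mutant samples 3 and 4 (-1.81, adjusted p = 0.000103), as did Tbp (-1.26, adjusted p = 0.0296, and -0.73, adjusted p = 0.0121). Leaving out mutant sample 3, mutant sample 4 or any 1 wild type sample ended the calls of Tcf4 (adjusted p from 0.0575 to 0.0817) and Tbp (0.0749 to 0.128). Tcf12 did not pass without mutant sample 3 (0.0505) or 4 (0.0503) or wild type sample 1 (0.0623), 3 (0.0603) or 4 (0.0648). Tbp also missed the threshold with quantile normalization (0.0552), no filter (0.0634) and no intensity trend (0.0637).

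Of the oocyte genes reported to depend on FIGLA, NOBOX, SOHLH1 or LHX8 in the mouse, 15 of 18 were tested. Among them 2 rose and 0 fell, against 3.01% and 4.03% of all tested genes, with a median log2 change of 0.36 beside -0.05. Zar1, a maternal-effect gene of the egg-to-embryo transition, gave 2066.4, 2819.5, 2438.6 and 2482.8 in mutant samples, against 337, 410.7, 360 and 337.7 in wild type samples. The mutant samples were close together and far above wild type (log2 change 2.76, standard error 0.21, adjusted p = 0.000674), a 6.77-fold rise. H1f8, the oocyte linker histone, gave 292, 585.5, 442 and 494.4 in mutant samples, against 59.5, 49.1, 109.4 and 105.3 in wild type samples (log2 change 2.53, standard error 0.34, adjusted p = 0.00771). Both passed in each mutant pair and with any single sample left out. In mutant samples 1 and 2, 6 of the 15 genes rose and 0 fell, against 3.85% and 3.63% of all tested genes, with a median log2 change of 0.81 beside 0.04 over all tested genes. In mutant samples 3 and 4, 3 rose and 4 fell, against 19.3% and 24.4% of all tested genes, with a median of -0.27 beside -0.19. Zar1 is among the 7 oocyte and egg markers that were high in mutant samples 1 and 2, and Zp1, Zp2, Zp3, Nlrp5, Dppa3 and Oosp1 are in both lists as well.

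Of the granulosa and cumulus genes reported to respond to GDF9 or BMP15, 7 of 12 were tested. Over all samples 0 rose and 1 fell, against 3.01% and 4.03% of all tested genes. In mutant samples 1 and 2, 0 rose and 0 fell, against 3.85% and 3.63% of all tested genes. In mutant samples 3 and 4, 4 rose (Fst, Grem1, Npr2 and Pfkp) and 1 fell, against 19.3% and 24.4%. No median is given, because a gene that was high in mutant samples 3 and 4 alone could pass the filter on dim probe sets through those samples. For the same reason the 4 rises are a description only. Egfr, the receptor for EGF-like signals in cumulus cells, gave 225.4, 339.1, 226.4 and 238.8 in mutant samples, against 797.3, 484.9, 459.2 and 564 in wild type samples for probe set 1424932_at (log2 change -1.15, standard error 0.26, adjusted p = 0.0305). None of its 4 other tested probe sets passed, and 2 of them had a positive log2 change (1435888_at, 1.07, and 1460420_a_at, 0.39). Probe set 1424932_at did not pass without mutant sample 3, mutant sample 4 or any 1 wild type sample (adjusted p from 0.0603 to 0.0981) or with mutant samples 1 and 2 alone (0.0709). Fst is in this list and is also 1 of the granulosa and cumulus markers that were high in mutant samples 3 and 4.

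**Figure D4:**
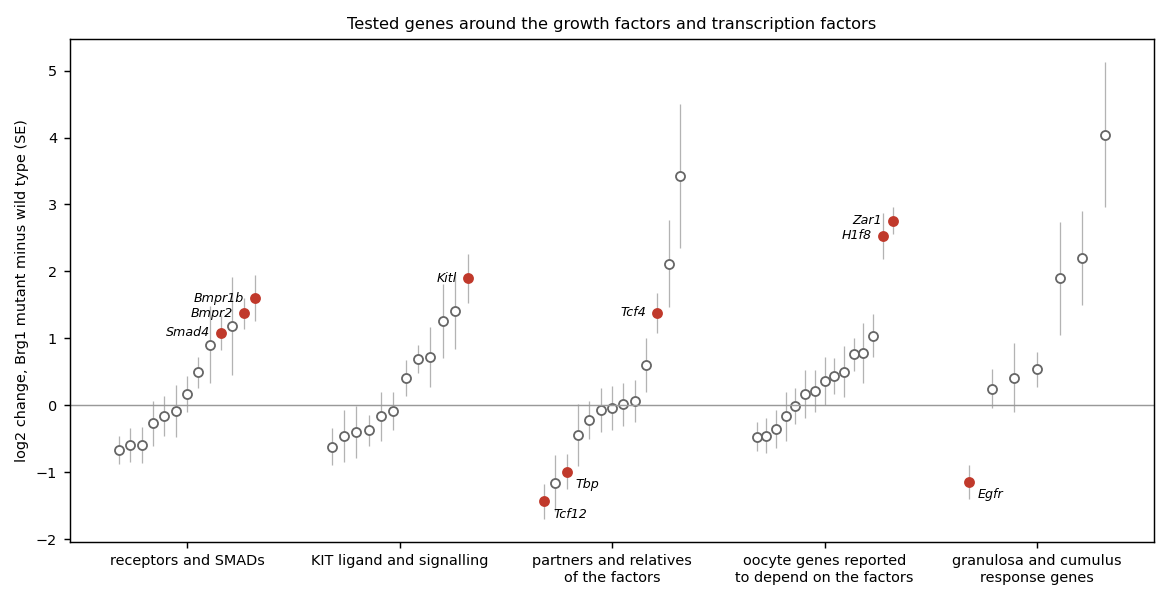
Log2 change (Brg1 mutant minus wild type, y axis) with its standard error for every tested gene of the 5 lists, ordered by value within each list; filled red points passed an adjusted p of 0.05 over all tested probe sets and are named, open points did not. The 2 largest passing changes are Zar1 at 2.76 and H1f8 at 2.53, and points with long error bars at the right of several lists did not pass.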

How the data were processed

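Each array was deposited as linear-scale intensities, namely MAS5 signals by probe set; the submitters' processing notes name MAS5 without a version. The 2% trimmed mean was 150 on every array, so no further scaling was done. Total RNA of 20 embryos per sample was labelled with a small-sample assay, per the labels' protocols. The labels speak of biological replicates and give no animals or collection days, so p-values reflect only how these 8 samples vary, and their number limits the precision. No pair of arrays held identical values.

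Log2 was taken after a floor of 1 on the signal. Of 45101 probe sets 64 controls were set aside, and the upper 50% of the rest by mean log2 signal (22518, from 5.25) were tested with limma 3.58.1 in R 4.3.3 (two-sided moderated test, with a trend of the variance on intensity), mutant against wild type by title. Benjamini-Hochberg adjustment ran over all tested probe sets with a threshold of 0.05. Folds were taken back from the log2 scale. The code was tested on simulated data. Samples with the same replicate number did not deviate together (correlations from -0.18 to 0.02), so the fit has no replicate block.

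Gene names were read from the platform annotation, with 1 symbol for 34945 probe sets, several for 932 and none for 9160, and 34754 matched the RefSeq table, which changed 0 symbols. The genes named are the members, in each list those past the threshold (at most the 4 with the smallest adjusted p), the 2 genes most like each member, and Smarca4. The members and lists were chosen with earlier results of these data known. The bound on background, each array's 95th percentile of 27 Bacillus control probe sets, was chosen after the data were seen. Each listed gene stands by the brightest of its tested probe sets. In counts over a list, the brightest is taken over the samples of each fit.

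Alternatives were 3 other scalings, 2 other filters, no intensity trend, a pseudocount of 16, a replicate block, array weights, each sample left out, each mutant pair alone, and averaging the tested probe sets of a gene.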

Additional observations from a re-analysis of the deposited data

How the results depend on the processing

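The call of Gdf9 depended on the processing while its direction did not: the count of member probe sets that rose, 1 as reported, was 0 with arrays centred on their 75th percentile, 0 with arrays centred on their median, 0 with no filter on dim probe sets and 0 to 1 when each sample was left out, and 2 with mutant samples 1 and 2 only. The count that fell, 1 as reported, was 5 with array weights (Bmp15 1420005_s_at, Lhx8 and the 3 of Taf4b), 2 with median centring, 6 with mutant samples 3 and 4 only, 2 with the upper 30% of probe sets and 0 to 2 when each sample was left out. Centring moved the median log2 change of all tested probe sets from -0.05 to -0.22 (median) and -0.19 (75th percentile), which by construction lowers every change; quantile normalization moved it to -0.14. Over the lists, the 7 genes that rose became 21 with array weights, 20 with mutant samples 3 and 4 only and 2 to 11 when each sample was left out, and the 3 that fell became 17, 12 and 0 to 4. With the replicate block, 0 member probe sets rose and 0 fell, and 1 list gene rose and 0 fell; the adjusted p was 0.118 for Gdf9 and 0.0841 for Taf4b 1435302_at, and 1 of 4 replicate numbers had its highest correlation with its own number. Signs turned for Bmp15, Kit, Lhx8 and Sohlh1. Bmp15 1420005_s_at was -0.66 with array weights (adjusted p = 0.0313), -0.021 with median centring, -0.70 with mutant samples 3 and 4 only and -0.19 to 0.44 over single omissions. Bmp15 1420006_at was -0.29 with array weights, -0.48 with mutant samples 3 and 4 only and -0.0099 to 0.59 over single omissions, and Bmp15 1450210_at was -0.032 with array weights. Kit 1415900_a_at was -0.14 and -0.18 with the 75th percentile and median centring, -0.072 with quantile normalization, -0.63 with array weights, -0.95 with mutant samples 3 and 4 only and -0.33 to 0.44 over single omissions. Kit 1452514_a_at was -0.014 and -0.046 with the same centrings, -0.56 with array weights, -0.54 with mutant samples 3 and 4 only and -0.20 to 0.44 over single omissions. Lhx8 was 0.40 with mutant samples 1 and 2 only and -0.51 to 0.037 over single omissions, and Sohlh1 was -0.18 with mutant samples 3 and 4 only. Apart from the effect of centring and of fewer samples, the cause was not tested. Figla, near the background bound, is the member whose signal limits precision.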
